A study of Mus musculus with 4 samples.

Results

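The 10 genes described here, *Per1*, *Per2*, *Per3*, *Cry1*, *Cry2*, *Arntl*, *Clock*, *Nr1d1*, *Nr1d2* and *Dbp*, belong to the mammalian circadian clock. They were chosen by name, through their NCBI gene numbers, from 24532 genes in the deposited tables, and all 10 were measured in every library. The tables came from bulk RNA-seq of the granule-cell-enriched (GCE) part of the vermis of the mouse cerebellum, with 1 library from each of 2 wild-type (WT) and 2 *Kdm3b*+/- mice. The mice were adult males, WT mice being littermates of *Kdm3b*+/- mice, on a background of C57Bl/6N and C57Bl/6J. The *Kdm3b*+/- mice carry 1 gene-trap allele, present in all cells and derived from a single ES cell line, in a gene for a demethylase of histone H3K9. All mice were kept on a light/dark cycle, and the hour at which tissue was taken is not given in the sources used here.

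The clock is a loop of transcription. ARNTL (also called BMAL1) and CLOCK bind E-box sequences and switch on the *Per* and *Cry* genes, whose proteins then block ARNTL and CLOCK. A second loop runs through NR1D1 and NR1D2, also called REV-ERBα and REV-ERBβ, which repress *Arntl* at ROR elements. *Dbp* is an E-box target whose protein acts on D-box sequences and carries the rhythm to output genes. In most tissues, the cerebellum included, *Arntl* and *Clock* peak near dawn and *Cry1* late in the night. *Nr1d1*, *Nr1d2*, *Dbp* and the *Per* genes peak from the middle of the day to dusk, and *Cry2* has a shallow rhythm. RNA levels of these genes are therefore read against the hour of sampling.

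Promoter windows are printed for 3 of the genes because they hold the letters of an E-box or a D-box, the elements the loop works through. They are the 250 bases before a RefSeq transcription start in GRCm38.p6, 5′ to 3′ on the strand of the gene, with the motif in capitals. The *Per1* window holds an E-box and lies at chr11:69098699-69098948 on the forward strand. The *Cry1* window holds an E-box and lies at chr10:85185055-85185304 on the reverse strand. The *Per3* window holds 2 D-boxes and lies at chr4:151044666-151044915 on the reverse strand, and was added after the values were seen.
Per1: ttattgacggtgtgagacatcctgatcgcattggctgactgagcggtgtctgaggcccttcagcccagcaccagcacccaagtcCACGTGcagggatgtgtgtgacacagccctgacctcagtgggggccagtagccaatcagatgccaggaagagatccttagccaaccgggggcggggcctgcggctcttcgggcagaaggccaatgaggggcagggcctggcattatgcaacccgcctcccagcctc
Cry1: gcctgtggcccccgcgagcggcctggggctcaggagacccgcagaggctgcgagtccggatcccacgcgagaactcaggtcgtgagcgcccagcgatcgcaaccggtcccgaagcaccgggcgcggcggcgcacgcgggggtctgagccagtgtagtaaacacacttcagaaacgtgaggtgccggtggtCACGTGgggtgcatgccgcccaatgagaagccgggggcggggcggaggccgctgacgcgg
Per3: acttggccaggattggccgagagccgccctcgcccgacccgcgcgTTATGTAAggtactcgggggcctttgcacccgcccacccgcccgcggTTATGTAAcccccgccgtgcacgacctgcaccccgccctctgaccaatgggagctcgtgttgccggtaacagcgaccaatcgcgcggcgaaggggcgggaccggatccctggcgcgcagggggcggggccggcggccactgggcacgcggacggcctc

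The table of promoters had entries for 9 of the 10 genes, without *Per2*. Both strands were searched. The E-box CACGTG was in a window of 2 of the 9 genes, and in 6.02% of 32817 promoter windows of the same length. The D-box, as TTATGTAA or TTACGTAA, was in that of *Per3* alone among the 9, and in 0.929% of all windows. The core of the ROR element, as TAGGTCA or TGGGTCA, was in none of the 9 genes' windows and in 5.39% of all. The full cAMP response element TGACGTCA was in none of them either, and in 1.55% of all. The shorter form TGACG, which also lies inside the full element, was in windows of *Per1*, *Cry1* and *Cry2*, and in 17.7% of all. A match of letters is a description of these windows. Bases after a start, and other spellings of these elements, were not searched, so a site there would be missed.

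Between 4.92 and 6.69 gigabases were aligned per library. Values below are given for mouse 1 and then mouse 2 of a genotype. *Kdm3b* itself stood at 9.10 and 11 TPM under WT and at 8.30 and 7.90 TPM under *Kdm3b*+/-, so both mutant libraries were below both WT libraries (log2 fold change −0.27, limma adjusted p = 0.424). TPM, transcripts per 1000000, is scaled for gene length and to the same total in each library. All 10 granule cell markers examined were found in every library, at a summed TPM between 5287 and 6244. Other cells were present as well, with a summed TPM of 8 oligodendrocyte markers between 14870 and 17781. The sum over 10 Purkinje cell markers was 1696 and 745 under WT and 940 and 762 under *Kdm3b*+/-. WT mouse 1 thus stood apart in Purkinje cell RNA, and WT mouse 2 stood apart in the clock genes, as described below, so values without either are given where they matter. In bulk tissue, fewer cells of a type and less RNA per cell cannot be told apart.

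The clock genes formed an upper and a lower tier of levels. Over the 4 libraries the mean TPM was 179 for *Dbp*, 147 for *Nr1d1*, 98.7 for *Cry2*, 78.8 for *Cry1* and 63.8 for *Nr1d2*. It was 30.02 for *Arntl*, 18.7 for *Per3*, 12.8 for *Clock*, 10.4 for *Per2* and 6.14 for *Per1*. The output gene, the repressors of *Arntl* and the *Cry* genes were thus the most abundant, and the activators and the *Per* genes the least. Every library had *Nr1d2*, *Arntl*, *Per3* and *Clock* in this order, and the ranges of these neighbours did not overlap. The ranges of the other neighbours overlapped, and 3 of those pairs changed order between libraries. *Nr1d1* was above *Dbp* in both WT mice and below it in both *Kdm3b*+/- mice. *Cry1* was above *Cry2* in *Kdm3b*+/- mouse 1 alone, and *Per2* was above *Clock* in WT mouse 2 alone. The plot of levels by library shows both tiers.

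**Figure D1:**
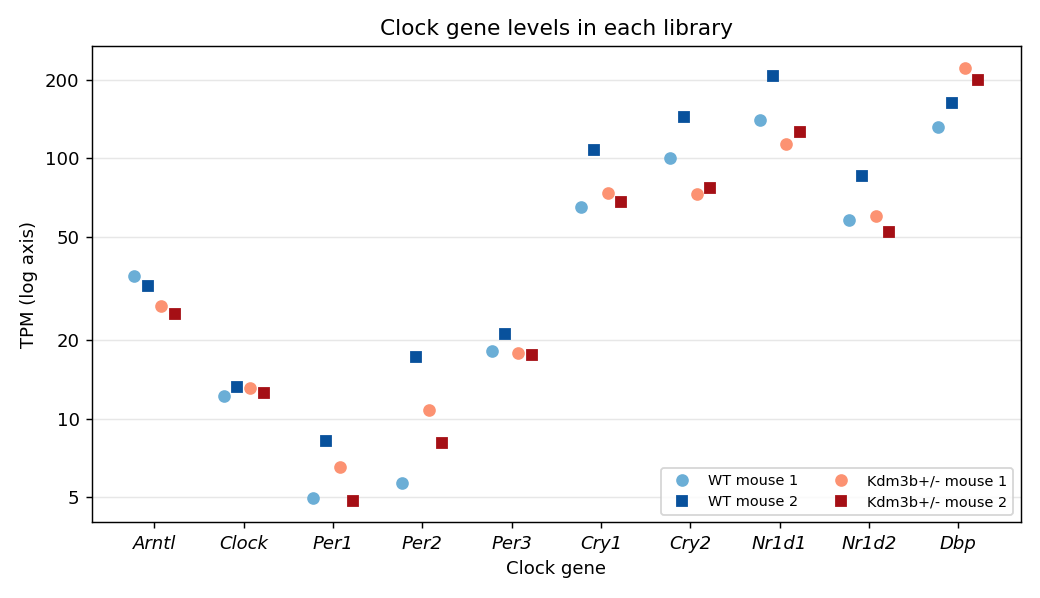
TPM of the 10 clock genes (x axis) in each of the 4 libraries, on a log axis; circles are mouse 1 and squares mouse 2 of each genotype, WT in blue and *Kdm3b*+/- in red. *Dbp* has both *Kdm3b*+/- points on top, and *Cry2*, *Nr1d1*, *Arntl* and, by a small margin, *Per3* have both at the bottom. WT mouse 2 (dark blue squares) is the highest library for 8 of the 10 genes.

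The question put to these genes was whether they differ in RNA level between *Kdm3b*+/- and WT mice. No clock gene was differentially expressed (DEX) between the genotypes. *Dbp* was higher in both *Kdm3b*+/- mice, by 0.52 on the log2 scale. *Cry2*, *Nr1d1* and *Arntl* were lower in both, with log2 fold changes of −0.68, −0.51 and −0.36. These 4 genes had an unadjusted p under 0.05 in limma, and the other 6 did not. Log2 fold changes are *Kdm3b*+/- minus WT on log2(TPM + 1), which understates the change of a low gene. DEX means a Benjamini-Hochberg adjusted p under 0.05 in a limma fit across all 13652 genes tested, together with a fold change over 1.2. The count of 0 of 10 stands beside 0.461% of all genes tested, and the count of 4 of 10 with an unadjusted p under 0.05 beside 17.0%. The groups did not overlap for 5 of the 10 genes, beside 51.3% of all genes tested. By itself a single gene cannot pass an exact permutation test here, since the smallest p, counted on both sides, that 2 mice against 2 can give is 0.333.

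The activators come first. *Arntl*, on the forward strand of chromosome 7 from 113207465 to 113314126 in the tables, encodes the DNA-binding partner of CLOCK. Coordinates of genes are those of the deposited tables, whose build is not stated and whose chromosomes match GRCm38.p6. It stood at 35.5 and 32.3 TPM under WT and at 27.1 and 25.2 TPM under *Kdm3b*+/-. Both mutant values lay below both WT values, and the mice of each genotype lay close together. The mean was 33.9 ± 2.29 against 26.2 ± 1.39 (SD, n = 2 each). This gave −0.36 on the log2 scale, with a 95% interval from −0.69 to −0.03 and a limma adjusted p of 0.263. With transcript length and GC content corrected for, the log2 fold change of *Arntl* was −0.21, with an unadjusted limma p of 0.144. *Clock*, on the reverse strand of chromosome 5 from 76209868 to 76304792, encodes its partner. It stood at 12.2 and 13.2 TPM under WT and at 13.2 and 12.5 TPM under *Kdm3b*+/-. The groups overlapped, and *Clock* was the steadiest of the 10 genes, with a log2 fold change of 0.02 and a 95% interval from −0.33 to 0.36. The ratio of *Arntl* to *Clock* TPM, formed after the values were seen, was 2.91 and 2.44 under WT and 2.06 and 2.01 under *Kdm3b*+/-. Other ratios were formed in the same way. Those of *Per1*, *Per2* and *Nr1d1* to *Arntl*, *Cry1* to *Clock*, and *Per2* and *Per3* to *Per1* overlapped between genotypes. For instance, *Per2* to *Arntl* was 0.159 and 0.535 under WT and 0.397 and 0.322 under *Kdm3b*+/-. The ratio of *Nr1d1* to *Nr1d2* was lower in both *Kdm3b*+/- mice, by a small margin in mouse 2.

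The *Per* genes encode the period proteins, the first arm of the E-box repressors. *Per1* lies on the forward strand of chromosome 11 from 69098956 to 69109957. It stood at 4.95 and 8.22 TPM under WT and at 6.54 and 4.86 TPM under *Kdm3b*+/-, so the mutant values straddled the lower WT value. It was the least abundant of the 10, at a mean read depth of 10.2 to 18.9 over its exons. The log2 fold change was −0.16 (95% interval from −0.69 to 0.38). It was −0.47 without WT mouse 1, 0.16 without WT mouse 2 and 0.0255 without *Kdm3b*+/- mouse 2. *Per2*, on the reverse strand of chromosome 1 from 91415982 to 91459328, stood at 5.65 and 17.3 TPM under WT and at 10.8 and 8.10 TPM under *Kdm3b*+/-. Both mutant mice lay between the WT mice, which were 3.06-fold apart. *Per2* gave no direction for the genotype. Its log2 fold change was −0.09 with a 95% interval from −0.96 to 0.78, and it was −0.82 without WT mouse 1 but turned to 0.64 without WT mouse 2 and to 0.0948 without *Kdm3b*+/- mouse 2. *Per3*, on the reverse strand of chromosome 4 from 151003655 to 151044665, stood at 18.2 and 21.2 TPM under WT and at 17.9 and 17.6 TPM under *Kdm3b*+/-. The mutant values were the lower ones by a margin smaller than the gap between the WT mice (log2 fold change −0.14, 95% interval from −0.48 to 0.21). When transcript length and GC content were corrected for, *Per1*, *Per2* and *Per3* had log2 fold changes of 0.0880, 0.0811 and 0.0155.

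The *Cry* genes encode the cryptochromes, the second arm of these repressors. *Cry1*, on the reverse strand of chromosome 10 from 85131700 to 85185054, stood at 65.1 and 108 TPM under WT and at 73.8 and 68.3 TPM under *Kdm3b*+/-. As for *Per2*, both mutant values lay between the WT values. The log2 fold change was −0.24 (95% interval from −0.72 to 0.25). It was −0.60 without WT mouse 1 and turned to 0.12 without WT mouse 2. *Cry2*, on the reverse strand of chromosome 2 from 92403647 to 92434069, stood at 101 and 144 TPM under WT and at 73.2 and 76.7 TPM under *Kdm3b*+/-. Both mutant mice were below both WT mice. The mean was 122 ± 30.9 against 75 ± 2.48 (SD, n = 2 each). The log2 fold change of −0.68 had the largest size among the 10 genes, with a 95% interval from −1.08 to −0.28 and a limma adjusted p of 0.152. It was −0.42 without WT mouse 2, −0.94 without WT mouse 1 and −0.44 after the correction for length and GC content, and no call was made in any of these fits. The ratio of *Cry2* to *Cry1* TPM, also formed after the values were seen, was 1.54 and 1.34 under WT and 0.992 and 1.12 under *Kdm3b*+/-.

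The repressors of *Arntl* were abundant. *Nr1d1*, on the reverse strand of chromosome 11 from 98767932 to 98775377, stood at 140 and 208 TPM under WT and at 114 and 126 TPM under *Kdm3b*+/-. Both mutant values lay below both WT values, with a larger gap between the WT mice than between the nearest mice of the 2 genotypes. The log2 fold change was −0.51 (95% interval from −0.93 to −0.09, limma adjusted p = 0.234). It was −0.23 without WT mouse 2 and −0.79 without WT mouse 1. After the correction for length and GC content it was −0.33, with an unadjusted limma p of 0.0548. *Nr1d2*, on the reverse strand of chromosome 14 from 18204056 to 18239106, stood at 57.8 and 85.5 TPM under WT and at 60.0 and 52.0 TPM under *Kdm3b*+/-. The groups overlapped through WT mouse 1. Its log2 fold change was −0.33 (95% interval from −0.76 to 0.11). It was −0.05 without WT mouse 2 and −0.60 without WT mouse 1. *Arntl*, the gene both proteins repress, was itself at a lower TPM in the *Kdm3b*+/- mice.

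*Dbp*, the output factor, stood apart in direction. It lies on the forward strand of chromosome 7 from 45705247 to 45710203. It stood at 132 and 163 TPM under WT and at 223 and 199 TPM under *Kdm3b*+/-. Both mutant mice were above both WT mice. The mean was 147 ± 21.9 against 211 ± 16.7 (SD, n = 2 each), and the 95% interval of the log2 fold change ran from 0.19 to 0.85 (limma adjusted p = 0.168). With each library left out in turn the log2 fold change stayed between 0.37 and 0.67. *Dbp* and *Nr1d1* are both E-box targets that peak by day, and their ratio, formed after the values were seen, was 0.941 and 0.784 under WT and 1.96 and 1.59 under *Kdm3b*+/-. The ratio of *Dbp* to *Cry2* was 1.31 and 1.13 in the WT mice against 3.04 and 2.60. For both ratios, then, the *Kdm3b*+/- libraries lay above the WT libraries, as follows from the opposite directions of the genes that make them up.

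Some of these genes share bases with a neighbour on the other strand, and whether counting used strand is not given in the sources used here. *Nr1d1* shares 263 exonic bases of GENCODE M21 with *Thra*, which encodes a thyroid hormone receptor and stood at 183 and 182 TPM under WT and at 154 and 183 TPM under *Kdm3b*+/-. *Dbp* shares 539 exonic bases with *Sphk2*, which encodes a sphingosine kinase and stood at 8.98 and 12.2 TPM under WT and at 7.65 and 6.68 TPM under *Kdm3b*+/-. *Cry2* shares 295 exonic bases with *D930015M05Rik*, whose TPM was between 1.0 and 1.37. Reads in the shared bases cannot be told apart without strand.

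**Figure D2:**
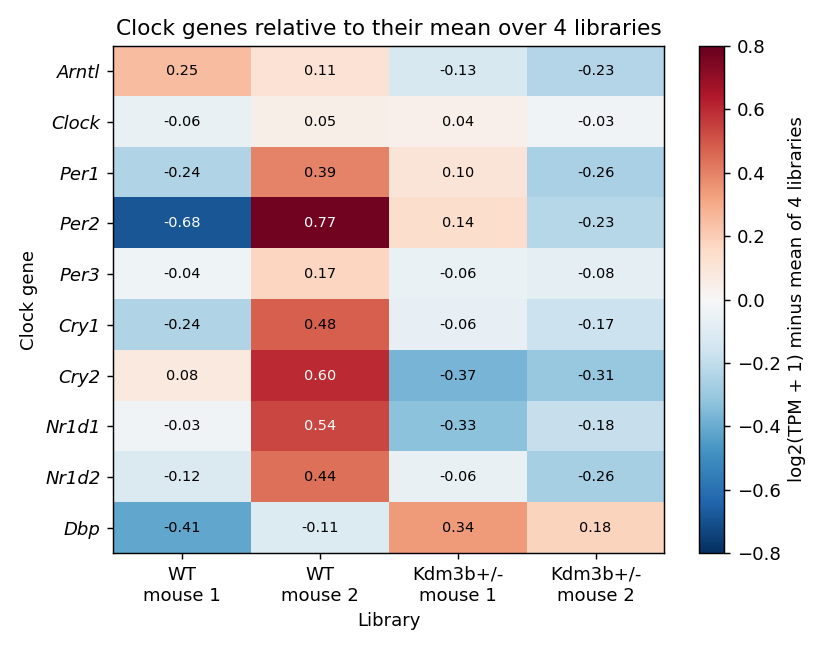
Log2(TPM + 1) of each clock gene (rows) in each library (columns), minus the mean of the 4 libraries for that gene; red is above and blue below that mean. The column of WT mouse 2 is red for every gene but *Dbp*, and the row of *Dbp* is the only one that is blue in both WT mice and red in both *Kdm3b*+/- mice.

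Clock gene levels set the WT mice apart from each other. WT mouse 2 was above WT mouse 1 for 9 of the 10 genes, *Arntl* being the exception. The median size of the difference between these mice, on log2(TPM + 1), was 0.54 for the 10 clock genes and 0.19 for all genes tested. The difference was 1.46 in *Per2*, 0.72 in *Cry1*, 0.63 in *Per1*, 0.56 in *Nr1d1* and in *Nr1d2*, and 0.52 in *Cry2*. A gap at least as large as that of *Per2* was found between the WT mice for 0.315% of all genes tested, and one as large as that of *Cry1* for 2.91%. The *Kdm3b*+/- mice were closer together. Their median difference was 0.13 for the clock genes and 0.14 for all genes tested, and no clock gene differed by more than 0.37. WT mouse 2 was the highest of the 4 libraries for 8 of the 10 clock genes, and for 42.4% of all genes tested. The exceptions were 2 genes: *Arntl* was highest in WT mouse 1, and *Dbp* in *Kdm3b*+/- mouse 1. The map of values centred on each gene's mean shows the same column.

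**Figure D3:**
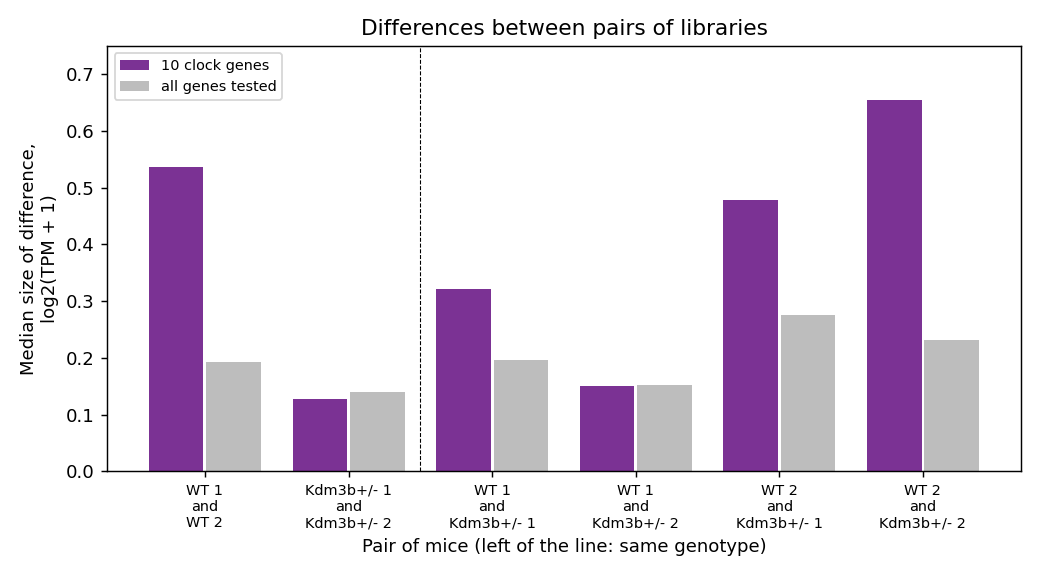
Median size of the difference in log2(TPM + 1) (y axis, from 0) for each pair of mice (x axis), over the 10 clock genes (purple) and over all genes tested (grey); pairs left of the dashed line share a genotype. The clock genes were 0.54 apart between the WT mice and 0.13 between the *Kdm3b*+/- mice, and WT mouse 1 and *Kdm3b*+/- mouse 2 were 0.15 apart, as all genes tested were.

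Between genotypes, the median difference of the clock genes depended on the WT mouse. It was 0.32 and 0.15 from WT mouse 1 to *Kdm3b*+/- mice 1 and 2, and 0.48 and 0.65 from WT mouse 2. All genes tested differed by 0.20, 0.15, 0.28 and 0.23 over the same pairs. For 7 of the 10 genes the gap between the WT mice was larger than the log2 fold change between genotypes. The other 3 were *Cry2*, *Arntl* and *Dbp*. A gap between 2 single mice varies more than a difference between means of 2 mice. This count therefore does not measure the genotype difference against its spread. The share over all genes tested was not computed. Their median gap between the WT mice was 0.193 and their median size of log2 fold change 0.185. For the clock genes these medians were 0.54 and 0.28.

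The genes were also set out by phase. The mean log2(TPM + 1) of the 6 dusk-phase genes (*Per1*, *Per2*, *Per3*, *Nr1d1*, *Nr1d2* and *Dbp*) was 4.94 and 5.56 under WT and 5.22 and 5.05 under *Kdm3b*+/-. That of the 3 dawn-phase genes (*Arntl*, *Clock* and *Cry1*) was 4.99 and 5.22 under WT and 4.96 and 4.86 under *Kdm3b*+/-. Dusk minus dawn was −0.05 and 0.34 under WT and 0.26 and 0.19 under *Kdm3b*+/-. Both mutant mice lay between the WT mice in this measure, and the genotype means differed by 0.08, less than the SD of 0.27 between the WT mice. This difference turned to −0.12 without WT mouse 1 and was 0.27 without WT mouse 2, and 0.0445 and 0.11 without *Kdm3b*+/- mouse 1 or 2. The dawn-phase genes did not move as a block, since WT mouse 2 was above WT mouse 1 by 0.72 in *Cry1* and by 0.11 in *Clock*, and below it by 0.13 in *Arntl*.

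Of the 10 clock genes, 8 had a log2 fold change below 0, as did 60.4% of all genes tested. Their median was −0.20, and that of all genes tested was −0.07. This count was 7 with quantile normalization and 5 after the correction for length and GC content, where the median was −0.03. Without WT mouse 2 it was 5 and the median was 0.0192, and without WT mouse 1 the median was −0.54.

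The rest of the pathway was described by a list of 27 genes around the core loop, chosen with earlier results of these data known. Of these, 25 had a mean TPM of at least 1, and *Avp* and *Prok2*, signals of the suprachiasmatic nucleus, were listed at 0 in every library. No gene of the list was DEX in limma. An unadjusted p under 0.05 was found for 7, all lower in the *Kdm3b*+/- mice, beside 17.0% of all genes tested. The median log2 fold change was −0.23, beside −0.07 for all genes tested. The groups did not overlap for 17 of the 25, beside 51.3% of all genes tested. By the same list, 20 genes were lower and 5 higher, beside 60.4% of all genes tested that were lower. The count of lower genes was 17 with median-ratio scaling and after the correction for length and GC content. WT mouse 2 was the highest library for 17 of the 25, beside 42.4% of all genes tested. Without this mouse 17 genes were lower and the median was −0.13, and without WT mouse 1 these were 21 and −0.29.

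Paralogs of the activators were low in level. *Npas2*, which can stand in for CLOCK, stood at 2.42 and 2.74 TPM under WT and at 1.4 and 1.31 TPM under *Kdm3b*+/- (log2 fold change −0.60, limma adjusted p = 0.187). *Arntl2*, the paralog of *Arntl*, had 2.91 and 3.13 against 1.70 and 1.02 (log2 fold change −0.78, limma adjusted p = 0.154). The groups lay apart for both genes, as for 51.3% of all genes tested, in the direction of *Arntl*. Mean read depth over exons was low, from 3.71 to 6.78 in *Npas2* and from 3.04 to 7.65 in *Arntl2*. Among the other E-box repressors, *Bhlhe40*, which encodes DEC1, stood at 126 and 150 TPM under WT and at 106 and 87.4 TPM under *Kdm3b*+/- (log2 fold change −0.51, limma adjusted p = 0.181). The log2 fold changes of its paralog *Bhlhe41*, of *Cipc* and of *Ciart*, also called *Chrono*, were −0.30, −0.36 and 0.18. *Rora* and *Rorb*, which encode receptors that drive *Arntl* at the element that NR1D1 binds, had log2 fold changes of −0.14 and 0.22.

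The partners of *Dbp* at the D-box did not share its direction throughout. *Tef*, a paralog of *Dbp*, stood at 180 and 236 TPM under WT and at 123 and 138 TPM under *Kdm3b*+/-. Both mutant mice were below both WT mice (log2 fold change −0.66, limma adjusted p = 0.128). *Hlf*, the third of these factors, stood at 12.4 and 14.5 TPM against 16.0 and 15.7, with a log2 fold change of 0.22 and a 95% interval from −0.13 to 0.58. *Nfil3*, which represses at the same element, had 36.2 and 38.2 against 31.0 and 27.8 (log2 fold change −0.33, limma adjusted p = 0.289). The ratio of *Dbp* to *Tef*, formed after the values were seen, was 0.733 and 0.689 under WT and 1.82 and 1.45 under *Kdm3b*+/-. The window of *Per3* printed above, with its D-boxes, belongs to a gene whose TPM ran from 17.6 to 21.2 over the 4 libraries.

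Of 10 genes for kinases, ubiquitin ligases and other proteins that act on the loop after transcription, 9 had a log2 fold change below 0. So did 60.4% of all genes tested. *Csnk1d*, a kinase of the PER proteins, stood at 92.7 and 125 TPM under WT and at 77.9 and 87.2 TPM under *Kdm3b*+/- (log2 fold change −0.38, limma adjusted p = 0.292). *Fbxw11*, a subunit of the ligase that marks PER, had 126 and 169 against 103 and 99.5 (log2 fold change −0.52, limma adjusted p = 0.183). The output genes *Wee1*, *Noct* and *Nampt* had log2 fold changes of −0.19, −0.06 and 0.13.

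**Figure D4:**
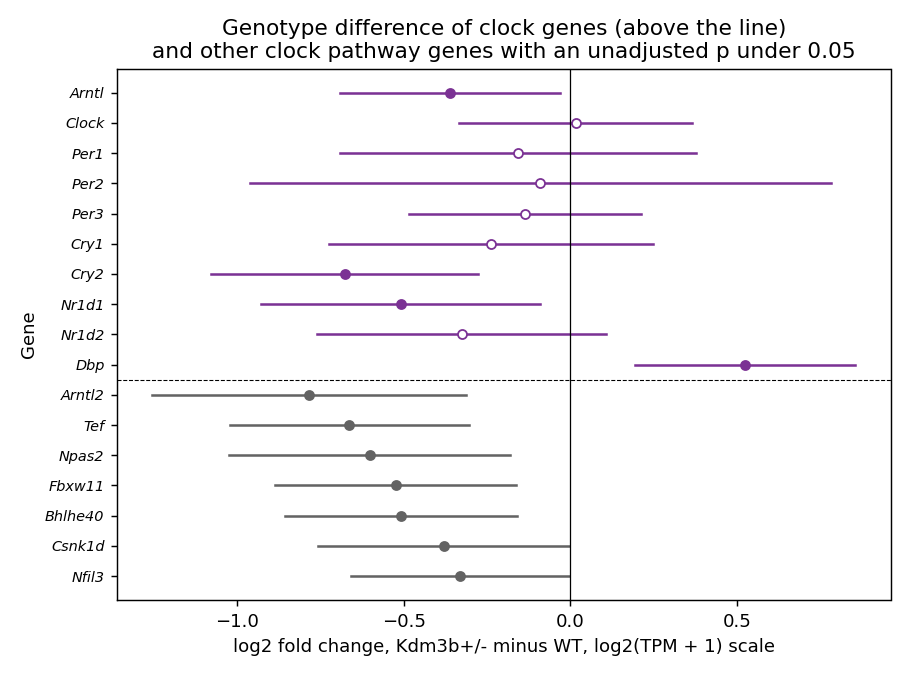
Log2 fold change, *Kdm3b*+/- minus WT on log2(TPM + 1), of the 10 clock genes (purple) and of the 7 other pathway genes with an unadjusted p under 0.05 (grey), with 95% intervals from limma; filled points had an unadjusted p under 0.05. *Dbp* is the only filled point to the right of 0, while *Cry2*, *Nr1d1*, *Arntl* and the 7 pathway genes, chosen by that p, are filled to the left of it, and none of these genes was DEX.

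*Per1* and *Per2* also respond to neuronal activity and to glucocorticoids, so the genes of these responses were read in the same libraries. The summed TPM of 12 immediate early genes was 388 and 550 under WT and 326 and 307 under *Kdm3b*+/-. In this sum WT mouse 2 was the highest, as for *Per1*, for *Per2* and for 42.4% of all genes tested. All 8 immediate early genes that were tested had a log2 fold change below 0, beside 60.4% of all genes tested. Of these 8, 4 had an unadjusted p under 0.05 in limma, beside 17.0%. The summed TPM of 12 glucocorticoid response genes was 2347 and 1919 under WT and 1730 and 1285 under *Kdm3b*+/-. Beside the same shares, all 11 that were tested were lower, 8 with an unadjusted p under 0.05. Beside 0.461% of all genes tested, *Sult1a1* and *Cdkn1a* were DEX, with log2 fold changes of −2.15 and −1.06. The order of the WT mice in this sum was opposite to their order in *Per1* and *Per2*. The part of these responses, and of the Purkinje cell RNA in WT mouse 1, in the clock gene values was not tested.

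By likeness over the 4 libraries, the genes outside the clock lists nearest to *Dbp* were *Drc1*, *Mia* and *Znhit1*, with a root-mean-square difference of 0.00836, 0.0218 and 0.0233 between centred log2(TPM + 1) values. The nearest clock gene to *Dbp* was *Clock*, at 0.265, though its log2 fold change was 0.02 against 0.52 for *Dbp*. *Drc1* and *Mia* were low, from 1.42 to 3.10 TPM and from 3.02 to 5.97 TPM. *Znhit1* stood at 39.3 and 49.2 TPM under WT and at 64.8 and 59.8 TPM under *Kdm3b*+/-. Those nearest to *Arntl* were *Prr5*, *Snhg5* and *Cpxm1*, at 0.0105, 0.0181 and 0.0206, and the nearest clock gene was *Per3*, at 0.168. With 4 values per gene among 13652 genes, this order of likeness is a description.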

How the data were processed

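Tissue and mice are described with the results. The authors trimmed low-quality bases, then ran STAR and StringTie. Tool versions, genome build and annotation are not given in the sources used here. The chromosome of 99.6% of the identifiers matched the GRCm38.p6 RefSeq table that gave symbols for 24462. As deposited, TPM and FPKM allow for gene length and library size, as the authors computed them, and coverage is the mean read depth over exons, a signal the authors left without normalization. Aligned bases came from the ratio of coverage to FPKM. Read counts were not recovered, so the depth behind a value is given as coverage.

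Entries that share an identifier were summed. The 13652 genes whose TPM averaged at least 1 were fitted on log2(TPM + 1) by genotype alone, using limma 3.58.1 (lmFit, then eBayes with a mean trend) and R 4.3.3. A count test, as the study used, does not suit TPM. The fit was tested on simulated data. Figures used Matplotlib 3.10.9. Motifs were searched by exact letters.

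The members and lists, the phase groups among them, were chosen with earlier results of these data known. The genes named are the 10 members, the pathway genes with an unadjusted p under 0.05, *Kdm3b* and the 3 genes nearest to *Dbp* and to *Arntl*. Other genes, and the ratios, were picked once values were known. Single values of 2 pathway genes are not reported here. Alternatives changed the pseudocount (to 0.1), the unit (to FPKM), the filter (none, or an average TPM of 5), the scaling (median ratio, quantiles, or leaving out the 20 highest genes), the choice among entries (the highest), eBayes (no trend, or robust with statmod 1.5.0), or the call (adjusted p alone, or a log2 fold change over 1.2). Others took the replicate number as a block, corrected for transcript length and GC content by loess (known for 94.5% of tested genes), did both, or left out a library. A library then alone in its group is assumed to vary like the others.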

Additional observations from a re-analysis of the deposited data

How the results depend on the processing

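No clock gene and no other pathway gene was DEX under any alternative but the replicate block, which called 1 of each, *Cry2* (adjusted p = 0.0258) and *Tef* (adjusted p = 0.0176). Same-numbered mice are different animals and their deviations correlated at 0.121 across genes (0.0229 after the correction for length and GC content), so the numbers were not taken as pairs. Over the alternatives the adjusted p of *Cry2* ran from 0.0258 to 0.378 and that of *Dbp* from 0.0518 to 0.680. The 4 clock genes with an unadjusted p under 0.05 in limma became 3 with FPKM, median-ratio scaling or quantiles. After the correction for length and GC content without the block they were 2. All genes with such a p then went from 2318 of 13652 to 1977 of 12904. *Cry2*, *Arntl*, *Nr1d1*, *Nr1d2* and *Dbp* kept their direction in all 17 fits, and 156 of 170 values of single clock genes had the direction reported. Of the 14 that did not, 7 came with a library left out. The others were *Per1*, *Per2* and *Per3* after the correction for length and GC content, with or without the block (0.0880, 0.0811 and 0.0155), and *Per2* with quantile normalization (0.0388). With each library left out in turn, the log2 fold change ran from −0.47 to 0.16 in *Per1*, from −0.82 to 0.64 in *Per2*, from −0.60 to 0.12 in *Cry1* and from −0.0397 to 0.0699 in *Clock*, and the median of the clock genes from −0.54 to 0.0192. Of all genes, 63 were DEX, against 38 with FPKM, 1 without a filter, 37 without trend, 600 with the block, 33 with a log2 fold change over 1.2, and between 21 (without WT mouse 1) and 188 (without *Kdm3b*+/- mouse 2) with a library left out. The cause of these shifts was not tested. Since TPM carries no counts, no interval for counting error was computed.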
